A study of Mus musculus with 2 samples.

Results

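The sodium-potassium pump genes described here are the 3 beta subunits Atp1b1, Atp1b2 and Atp1b3 and the 3 FXYD regulators Fxyd1, Fxyd6 and Fxyd7, 6 of 43346 mouse genes listed. They were chosen by name, with earlier results of these data known, as pump subunits and regulators that stand for neuronal, glial and general forms. They were matched by Ensembl identifier. RNA came from the hindbrain of 2 pups of the mouse strain B6NCrl at postnatal day 0, pup 1 (replicate 1) and pup 3 (replicate 2), each with 1 library made from 13 pg of RNA above 200 nt, called 1 cell-equivalent in the labels. The labels name no treatment, allele or second group, list the pups under 1 donor record, and state the sex as not collected. The material was whole tissue, so a library averages all cell types of the hindbrain, and fewer cells of a type cannot be told apart from less RNA per cell.

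The pump moves sodium out of the cell and potassium in, at the cost of ATP, and the gradients it builds carry the action potential and the uptake of transmitters. Its catalytic alpha subunit leaves the endoplasmic reticulum and reaches the membrane together with a glycosylated beta subunit. FXYD proteins are small membrane proteins that bind the assembled pump and adjust its affinity for ions. In the brain Atp1b1 is widespread and high in neurons, Atp1b2 encodes the adhesion molecule on glia (AMOG), and Atp1b3 is found in many tissues.

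The FXYD family is named after a run of 4 residues near the membrane span, phenylalanine, any residue, tyrosine and aspartate. The coding stretches that hold these 4 codons are shown because they are what joins the 3 FXYD genes, read from the GENCODE M21 transcripts on GRCm38, 5′ to 3′ on the coding strand, with the 4 codons in capitals.
Fxyd1: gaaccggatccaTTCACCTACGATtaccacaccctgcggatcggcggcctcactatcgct
Fxyd6: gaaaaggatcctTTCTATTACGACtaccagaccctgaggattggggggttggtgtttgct
Fxyd7: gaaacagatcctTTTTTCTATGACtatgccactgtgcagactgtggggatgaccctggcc
The first capital codon is codon 29 in Fxyd1, codon 29 in Fxyd6 and codon 18 in Fxyd7, counted from the start codon. Within these 60 bases Fxyd1 and Fxyd6 had 41 identical bases, Fxyd6 and Fxyd7 37, and Fxyd1 and Fxyd7 35. Each stretch is coding sequence split by 1 intron at the same place, after 22 bases and before the last 38, which is inside the fourth capital codon. The Fxyd1 stretch lies at chr7:31053893-31053914 and chr7:31053437-31053474 on the minus strand, and the Fxyd7 stretch at chr7:31047373-31047394 and chr7:31044990-31045027 on the minus strand. The Fxyd6 stretch lies at chr9:45390651-45390672 and chr9:45390777-45390814 on the plus strand. Over whole coding sequences, identity was 58.2% between Fxyd1 and Fxyd6, 51.04% between Fxyd6 and Fxyd7 and 49.1% between Fxyd1 and Fxyd7. Among the beta subunits it was 56.2% between Atp1b2 and Atp1b3, 54.7% between Atp1b1 and Atp1b2 and 50.6% between Atp1b1 and Atp1b3. The longest run of bases shared by any pair of the 6 transcripts was 19, between Atp1b1 and Atp1b2.

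The libraries held 35462381 expected counts in pup 1 and 29866728 in pup 3, where an expected count is an estimate that splits a read shared among transcripts. Levels are TPM (a share of all transcripts per length), rescaled to a total of 1000000 over 43309 nuclear genes, so genes can be compared with each other. A gene with at least 5 expected counts was called detected. The hindbrain label was checked against Hoxb5 and Hoxa2, detected in both libraries, and against the forebrain genes Emx1, Six3 and Dlx1, with 0 counts in both. A count of 0 allows up to 3 counts, which at an effective length of 500 nt is 0.29 TPM in pup 1 and 0.328 in pup 3. Floors and intervals cover counting error alone, because amplified reads without molecular identifiers are not independent molecules. With 1 library per pup, differences between pups carry no replicate check, and no test was made.

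All 6 members were detected in both libraries, beside 37.8% of 21461 protein-coding genes. The members were chosen with earlier results of these data known, so their detection is not a test against that share. Atp1b1 (ENSMUSG00000026576.8, chr1:164437109-164458355, minus strand) was at 218 TPM in pup 1 and 235 in pup 3, from 11169 and 10350 expected counts, a mean of 226 ± 12.02 TPM (SD, n = 2). Its level ranked 755 and 778 among the protein-coding genes of pup 1 and pup 3. Of the 3 beta subunits Atp1b1 had the smallest spread between the pups.

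Atp1b2, the glial adhesion form (ENSMUSG00000041329.9, chr11:69599736-69605942, minus strand), was at 230.1 TPM in pup 1 and 157 in pup 3, from 13348 and 6140 counts, a mean of 193 ± 52.1 TPM (SD, n = 2). Atp1b2 was above Atp1b1 in pup 1 and below it in pup 3, so these neighbours in the order of levels did not differ beyond their spread. Atp1b3 (ENSMUSG00000032412.8, chr9:96332655-96364442, minus strand) was at 109 TPM in pup 1 and 48.4 in pup 3, from 4139.5 and 1666 counts, a mean of 78.5 ± 42.6 TPM (SD, n = 2). It was the lowest beta subunit in each pup, below Atp1b1 by 2.00-fold in pup 1 and 4.85-fold in pup 3.

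Fxyd6, a regulator of brain pumps also called phosphohippolin, was the highest of the 6 genes. It was at 879.7 TPM in pup 1 and 567 in pup 3, from 30842 and 17537 counts, a mean of 724 ± 221 TPM (SD, n = 2). Fxyd6 (ENSMUSG00000066705.6, chr9:45370185-45396159, plus strand) ranked 136 of 21461 protein-coding genes in pup 1 and 241 in pup 3. Its lower value lay above the higher value of every other member.

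Fxyd7, a regulator found in brain (ENSMUSG00000036578.6, chr7:31042513-31051467, minus strand), was at 275 TPM in pup 1 and 236 in pup 3, from 3330 and 2524 counts, a mean of 255 ± 27.2 TPM (SD, n = 2). Fxyd6 exceeded it by 3.20-fold in pup 1 and 2.40-fold in pup 3. Fxyd7 was above Atp1b1 by 57.2 TPM in pup 1 and 1.69 in pup 3, a mean difference of 29.4 ± 39.3 TPM (SD, n = 2) that was within the spread between the pups. Fxyd1, phospholemman, which protein kinases phosphorylate in heart and muscle (ENSMUSG00000036570.10, chr7:31051678-31057199, minus strand), was at 64.5 TPM in pup 1 and 132 in pup 3, from 588 and 1064 counts, a mean of 98.3 ± 47.9 TPM (SD, n = 2). It was the lowest member in pup 1 and stood above Atp1b3 in pup 3, so the order of Fxyd1 and Atp1b3 was not the same in the pups. Atp1b2 exceeded Fxyd1 by 166 TPM in pup 1 and 24.3 in pup 3, a mean difference of 94.98 ± 99.9 TPM (SD, n = 2), also within the spread, although the lower Atp1b2 value lay above the higher Fxyd1 value.

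**Figure D1:**
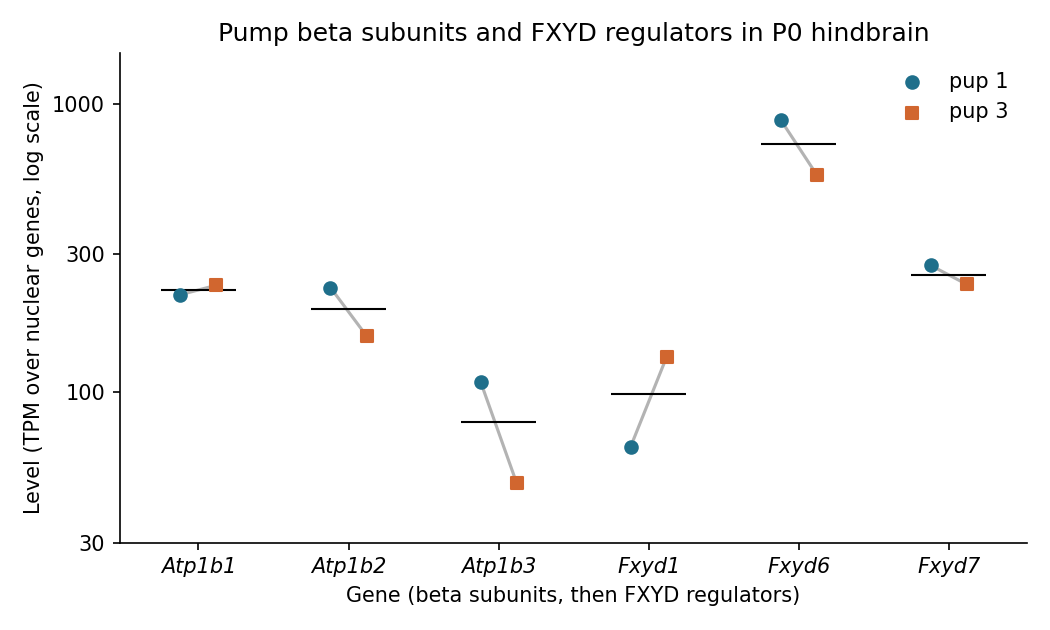
Level of each gene in pup 1 (circles) and pup 3 (squares), in TPM over nuclear genes on a log axis, with a horizontal line at the mean of the 2 libraries. Fxyd6 lies above all others in both pups at 879.7 and 567 TPM, and Fxyd1 and Atp1b3 change places between the pups.

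The summed level of the 3 beta subunits was 556 TPM in pup 1 and 439 in pup 3, and that of the 3 FXYD genes 1219 and 936 TPM. FXYD transcripts therefore exceeded beta subunit transcripts by 2.19-fold in pup 1 and 2.13-fold in pup 3. These sums depend on the 6 genes chosen and hold no catalytic subunit.

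The 6 genes differed between the pups by less than 4-fold. None of them passed that fold, beside 40.7% of 12300 nuclear genes with at least 50 counts in 1 library, made up of 24.0% higher in pup 1 and 16.7% higher in pup 3. None passed 8-fold either, beside 28.2% of the 12300. The share past 4-fold was 7.75% among the 4191 protein-coding genes detected in both libraries with a geometric mean of 30 to 1000 TPM, the range that holds all members. At 2-fold, 2 of the 6 passed, beside 62.7% of the same 12300 genes (34.7% higher in pup 1 and 27.9% higher in pup 3) and 34.1% of the 4191. These were Atp1b3, higher in pup 1 with a log2 ratio of pup 3 over pup 1 of -1.15, and Fxyd1, higher in pup 3 with a log2 ratio of 1.02, both taken after adding a pseudocount of 1 TPM. The log2 ratio was -0.63 for Fxyd6, -0.55 for Atp1b2, -0.22 for Fxyd7 and 0.11 for Atp1b1. The median log2 ratio of the members was -0.39, beside 0.12 over the 8931 nuclear genes detected in both libraries. The median size of the difference was 1.51-fold for the members, beside 1.63-fold for the 4191 genes of the same range.

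**Figure D2:**
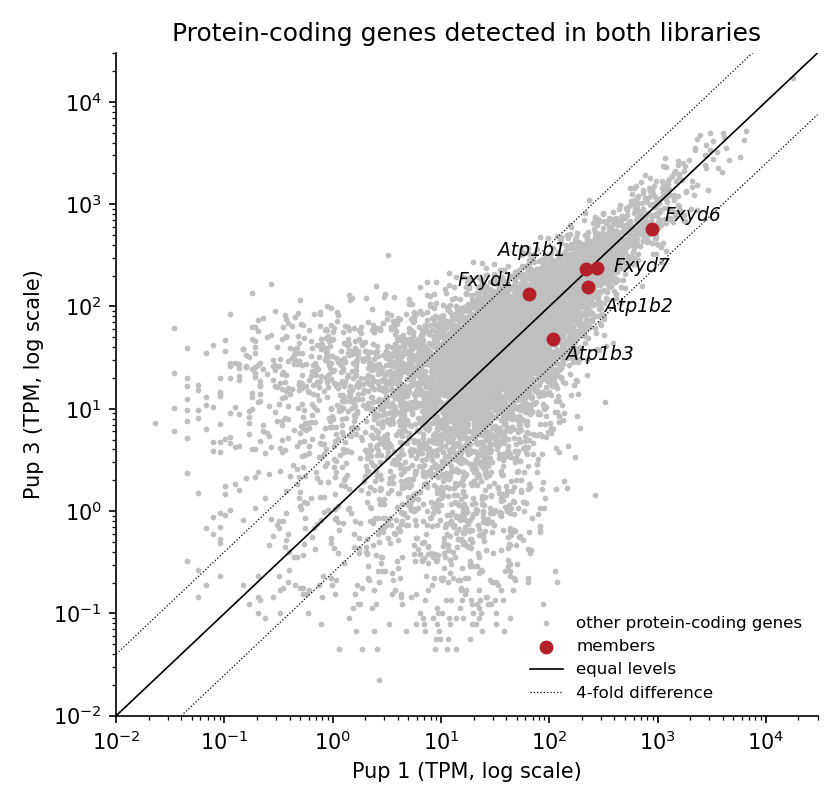
Levels of all protein-coding genes detected in both libraries, pup 1 against pup 3 in TPM on log axes (grey points), with the 6 members in red, a solid line at equal levels and dotted lines at 4-fold. All 6 members lie between the dotted lines, with Fxyd1 above and Atp1b3 below the solid line by over 2-fold.

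Within each family the composition also shifted between the pups. Atp1b1 took 39.1% of the summed beta subunit TPM in pup 1 and 53.4% in pup 3, a mean of 46.2 ± 10.1% (SD, n = 2). Atp1b2 took 41.4% and 35.6%, a mean of 38.5 ± 4.07%, and Atp1b3 19.5% and 11.01%, a mean of 15.3 ± 6.02% (SD, n = 2). Atp1b1 and Atp1b2 together thus made up most of the beta subunit transcripts of both pups.

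Fxyd6 took 72.2% of the summed TPM of the 3 FXYD genes in pup 1 and 60.6% in pup 3, a mean of 66.4 ± 8.16% (SD, n = 2). Fxyd7 took 22.5% and 25.2%, and Fxyd1 5.29% and 14.1%. The order Fxyd6, Fxyd7, Fxyd1 was the same in both pups. These shares do not depend on how a library is scaled. They do depend on length, because Fxyd1 and Fxyd7 transcripts are short, with effective lengths of 440 and 585 nt in pup 1 against 1692 nt for Fxyd6.

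**Figure D3:**
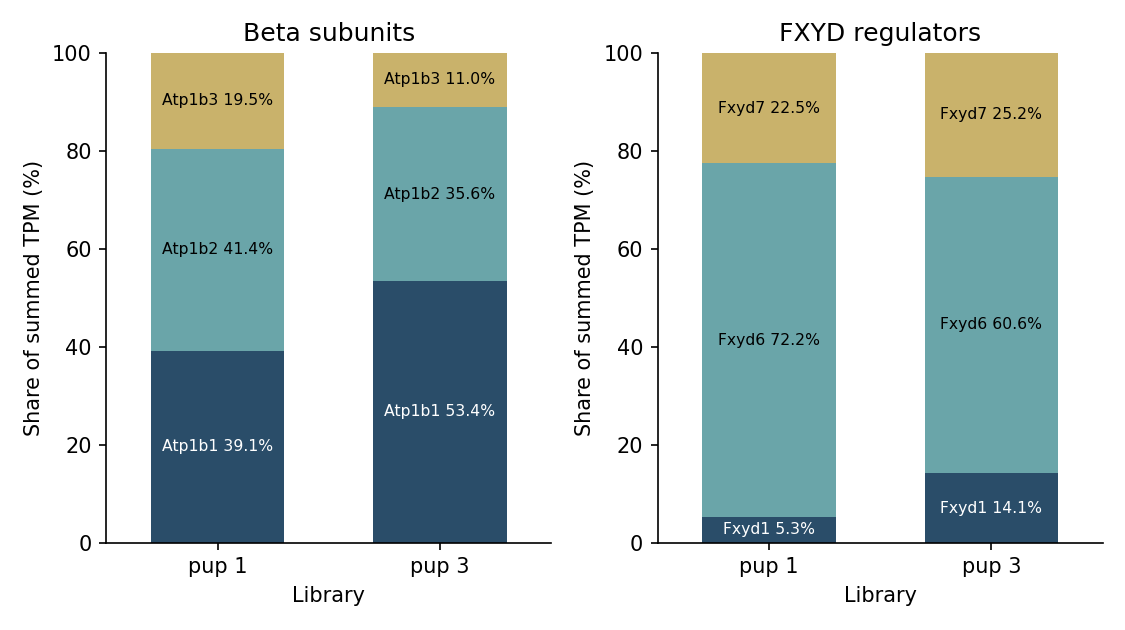
Share of the summed TPM of the 3 beta subunits (left) and of the 3 FXYD genes (right) taken by each gene, in percent, 1 bar per library. Atp1b1 takes 39.1% in pup 1 and 53.4% in pup 3, and Fxyd6 more than the other two FXYD genes together in each pup.

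The transcript estimates of Atp1b2 differed between the pups. The annotation used for the tables gave this gene 5 transcripts. The principal protein-coding transcript Atp1b2-201 was at 214 TPM in pup 1 and 97.1 in pup 3, a 2.21-fold difference, against 1.47-fold for the whole gene. Atp1b2-202, which keeps an intron of 801 bases (chr11:69601624-69602424), was at 15.4 TPM in pup 1 and 10.96 in pup 3. Atp1b2-204, annotated as a processed transcript without a coding sequence, was at 0.35 TPM in pup 1 and 48.1 in pup 3.

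Atp1b2-204 ends at chr11:69601358, while Atp1b2-201 runs on to chr11:69599736. Atp1b2-204 also lacks the first exon of Atp1b2-201 and starts with 60 bases that are intronic in it. These bases are shown because they are the bases of Atp1b2-204 that Atp1b2-201 does not hold (capitals, chr11:69603554-69603613, minus strand, followed by the first 20 bases of the shared exon in lower case).
Atp1b2-204: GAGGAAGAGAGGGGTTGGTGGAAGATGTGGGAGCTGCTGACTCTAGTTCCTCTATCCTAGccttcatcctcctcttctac
By expected counts Atp1b2-204 was assigned 4 of 13348 counts of the gene in pup 1, or 0.03% (95% Wilson interval 0.0117 to 0.077%), and 537 of 6140 in pup 3, or 8.75% (8.06 to 9.48%). These intervals treat estimated counts as observed and leave out the error in splitting shared reads between transcripts. At 711 nt Atp1b2-204 is shorter than Atp1b2-201 at 2842 nt, so the same counts weigh more in TPM, and it took 30.7% of the gene's TPM in pup 3. The effective length of the gene, an average weighted by its transcripts, was 2799 nt in pup 1 and 2148 nt in pup 3. As counts scaled to 1000000 nuclear counts, Atp1b2 was at 399 in pup 1 and 217 in pup 3, a 1.84-fold difference. The read coverage along the gene was not analysed here, so whether reads lie on the 60 bases was not tested.

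**Figure D4:**
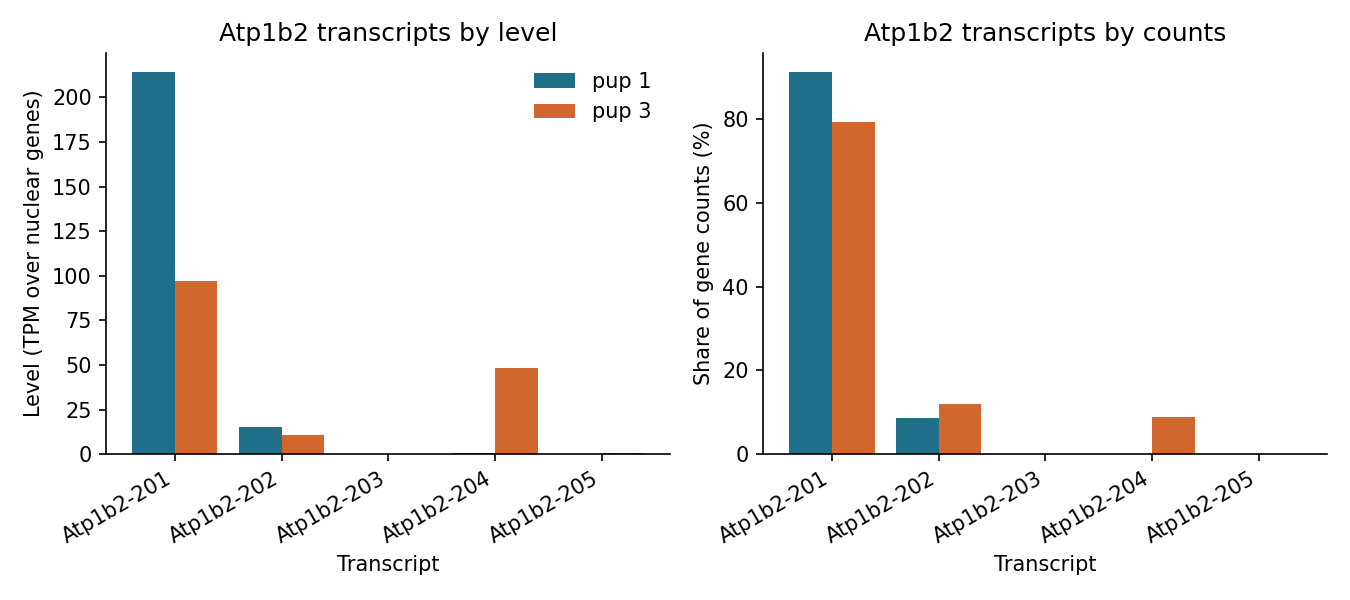
The 5 annotated Atp1b2 transcripts in pup 1 and pup 3, by level in TPM over nuclear genes (left) and by share of the gene's expected counts in percent (right). Atp1b2-204 reaches 48.1 TPM in pup 3 against 0.35 TPM in pup 1, while its share of counts in pup 3 is 8.75%.

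In the other members 1 transcript carried nearly all of the level. Atp1b1-201 took 99.9% of the TPM of Atp1b1 in pup 1 and 96.7% in pup 3. Atp1b3-201 took 96.8% of the TPM of Atp1b3 in pup 1 and 99.3% in pup 3. Fxyd1-203 took 100% and 99.2% of the TPM of Fxyd1, and Fxyd6 and Fxyd7 were listed with 1 transcript each. The remaining transcripts of Atp1b1, Atp1b3 and Fxyd1 were between 0 and 7.79 TPM.

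The expected counts of Atp1b2, Fxyd1, Fxyd6 and Fxyd7 were whole in both libraries within 0.005, so their totals show no read split with another gene. Those of Atp1b1 and Atp1b3 were not whole. Atp1b1 overlaps Nme7, a gene of the nucleoside diphosphate kinase family on the opposite strand, by 617 bases at their ends. Nme7 was at 24.6 TPM in pup 1 and 29.7 in pup 3. The strand setting of the counting is not known here, so reads in the overlap cannot be told apart.

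Fxyd5, Fxyd7 and Fxyd1 lie side by side on the minus strand of chromosome 7, with 31 bases between Fxyd5 and Fxyd7 and 210 bases between Fxyd7 and Fxyd1. The neighbours did not all differ in the same direction between the 2 libraries. Fxyd5, known as dysadherin, had 544 counts in pup 1 (34.9 TPM) and 0 in pup 3. That is at least 159.9-fold higher in pup 1 for counting error alone, and the spread between repeat libraries was not measured. Fxyd1 was 2.05-fold higher in pup 3 and Fxyd7 1.16-fold higher in pup 1. Fxyd2, the gamma subunit of kidney pumps, lies 3509 bases after Fxyd6 on the same strand. It had 136 counts in pup 1 (12.3 TPM) and 0 in pup 3, at least 39.98-fold higher in pup 1 for counting error alone. Fxyd3, Fxyd4 and Atp1b4, the last a muscle gene of the beta family, had 0 counts in both libraries. Of these 5 other beta and FXYD genes 0 were therefore detected in both pups. For scale, 13847 nuclear genes reached 5 counts in either pup, and 64.5% of these did so in each. The remaining genes reached 5 counts in a single pup, so detection in 1 pup alone was not peculiar to Fxyd5 and Fxyd2. The share of genes with 0 counts in the other pup, as for Fxyd5 and Fxyd2, was not counted. Genes detected in neither pup are outside the 64.5%, but the 5 genes here and the lists that follow can include them. Their detection counts therefore stand beside the 37.8% of 21461 protein-coding genes detected in both pups.

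Nkain proteins are small membrane proteins that interact with the beta subunit. Of 4 Nkain genes 2 were detected in both pups. Nkain4 was at 114 TPM in pup 1 and 157 in pup 3, and Nkain3 at 4.63 and 13.5 TPM. Nkain2 had 155 counts in pup 1 and 0 in pup 3, at least 45.6-fold higher in pup 1 for counting error alone. Nkain1 had 0 in both. Nkain4 thus stood within the range of the beta subunits.

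Calcium pumps and exchangers that run on ion gradients overlapped the lowest members in level. Of 12 listed genes 9 were detected in both pups, with a median over the list of 6.22 TPM (pup 1) and 14.1 TPM (pup 3), and 5 were higher in pup 1 and 6 in pup 3. The highest were the endoplasmic reticulum calcium pump Atp2a2 at 60.5 ± 20.3 TPM and the plasma membrane calcium pumps Atp2b1 at 55.7 ± 19.2 TPM and Atp2b2 at 34.4 ± 9.76 TPM (SD, n = 2). Atp2a2 at 74.9 TPM stood above Fxyd1 in pup 1, and Atp2b1 at 69.3 TPM above Atp1b3 in pup 3.

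Genes by which glia take up ions, water and transmitters could be detected in each pup for 8 of the 10 listed, and 7 were higher in pup 1 and 2 in pup 3. The glutamate transporter Slc1a3, which runs on the sodium gradient, was at 532 TPM in pup 1 and 281 in pup 3. The gap junction gene Gja1 was at 416 TPM in pup 1 and 131 in pup 3, and the water channel Aqp4 at 84.8 and 66.6 TPM. The median over the list ran the other way, at 30.3 TPM (pup 1) and 52.8 TPM (pup 3), and Mlc1 and the GABA transporter Slc6a11 were higher in pup 3, at 109 and 66.5 TPM against 23.2 and 13.2 TPM.

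Markers of the cell types that the tissue can hold were summed in each library. The 8 neuronal markers, all detected in both, summed to 10807 TPM in pup 1 and 9167 in pup 3, although 5 of the 8 were higher in pup 3. Of 8 astrocyte and radial glia markers 6 were detected in both, and they summed to 9889 and 10079 TPM, although 6 of the 8 were higher in pup 1, with Aldh1l1 at 1 count and Hopx at 0 in pup 3. All 6 meningeal markers were higher in pup 3, and they summed to 2625 TPM in pup 1 and 4816 in pup 3. Ptgds, Dcn and Slc6a13 were at 2333, 84.6 and 85.2 TPM in pup 1 and at 4325, 167 and 107 TPM in pup 3. The 7 choroid plexus markers, 5 of them detected in both, summed to 3306 and 3692 TPM (3 higher in pup 1 and 4 in pup 3). Most of each sum was Ttr, at 3028 TPM in pup 1 and 3380 in pup 3. Kcnj13 was at 0 counts in pup 3 and Cldn2 at 0 in pup 1. Otx2 was at the detection limit in pup 1, with 5 counts against 2817 in pup 3. Aqp1 was at that limit in pup 3, with 5 counts against 121 in pup 1. The 8 oligodendrocyte lineage markers, 5 of them detected in both, summed to 535 and 341 TPM (5 higher in pup 1 and 3 in pup 3), with Olig2 at 2 and 0 counts and Mobp and Gpr17 at 0 in pup 3. Endothelial and pericyte markers (3 of 6 detected in both) summed to 346 and 446 TPM, with 3 higher in each pup. Flt1 counts were 0 in pup 1 against 4782 in pup 3, while Esam counts were 2682 against 2 and Pecam1 counts 19 against 3. Microglial markers (3 of 6) summed to 259 and 243 TPM (3 higher in each pup), with Csf1r and Tyrobp at 0 counts in pup 3 and Cx3cr1 at 0 in pup 1. Erythroid markers, 4 of them detected in both, summed to 1486 and 3941 TPM (1 higher in pup 1 and 4 in pup 3), with Alas2 at 0 counts in pup 3. The part of these cell types in the differences between the pups was not tested.

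The direction of 5 members was the same under the 8 other ways of scaling or counting that were tried. Across them the log2 ratio of pup 3 over pup 1 lay between -1.21 and -1.06 for Atp1b3, 0.93 and 1.11 for Fxyd1, -0.71 and -0.54 for Fxyd6, and -0.30 and -0.13 for Fxyd7. That of Atp1b2 lay between -1.13 and -0.47, and passed 2-fold with edgeR's TMM scaling (-1.01), DESeq2's size factors (-1.02) and Atp1b2-201 alone (-1.13). Fxyd1 fell short of 2-fold with both count-based scalings and with a pseudocount of 5. Atp1b1 lay between -0.0065 and 0.20 and changed sign under both count-based scalings, so it has no stable direction.

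**Figure D5:**
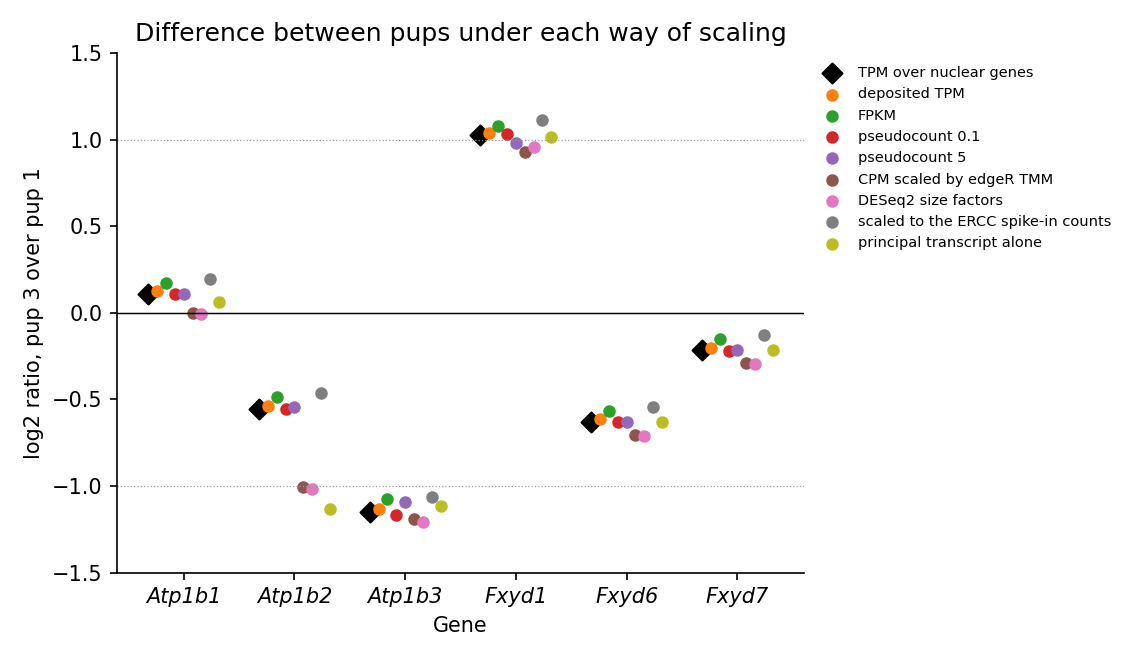
Log2 ratio of pup 3 over pup 1 for each member under the main scaling (black diamonds) and 8 alternatives (coloured circles), with dotted lines at 2-fold. Atp1b2 moves from -0.55 to about 2-fold lower in pup 3 when counts or its principal transcript are used, and Atp1b1 stays near the line of no difference.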

How the data were processed

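The authors deposited a gene and a transcript table for each of the 2 libraries, made on mm10 with annotation M4 per the deposited notes. Per the file headers, the tables give expected counts, TPM and FPKM, and the transcript tables the percent of a gene's TPM taken by each transcript. For the aligner, quantifier and strand setting, nothing is stated in the labels or headers. The deposited effective length equals length minus 99 nt.

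Symbols, biotypes and coordinates (1-based) came from GENCODE M21 on GRCm38, the same assembly, matched by stable identifier for 42462 of 43346 genes. The deposited transcripts of Fxyd1, Fxyd6 and Fxyd7 differ in length from those of M21. TPM was rescaled over nuclear genes, leaving out mitochondrial genes, spike-ins and 26248 entries named by a number. Detection was set at 5 counts, folds at 4 with at least 50 counts in 1 library and a pseudocount of 1. The fold step was run on simulated counts with planted changes and counting error alone. That checks the calculation and not fold calls at this RNA input. Scaling factors came from edgeR 4.0.16 and DESeq2 1.42.0 on rounded expected counts, with Python 3.11.15 and R 4.3.3. With 1 group there was no test. The members, the lists and the rule for naming genes (all members, the other beta, FXYD and Nkain genes, overlapping and adjoining genes, and the highest 3 of other lists) were chosen with earlier results of these data known, and Lgi4 and Gm32391 near the members had 0 counts. Marker genes beyond the highest 3 of their list were named for a count of 0 or 1 to 3 in a library. Mlc1, Slc6a11, Otx2 and Aqp1 were named after their values were seen. Alternatives were other detection limits, thinning, folds, minimum counts, pseudocounts, scalings and each library alone, and, chosen after seeing the data, the principal transcript alone and spike-in scaling. The genes of the catalytic subunit are not reported here.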

Additional observations from a re-analysis of the deposited data

How the results depend on the processing

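All 6 members were detected in both libraries at 1, 5 or 10 counts, at 1 TPM and after thinning the deeper library. The count of members past 4-fold was 0 under each scaling, pseudocount, minimum count and with the principal transcript alone, and at 8-fold, and became 2 at 2-fold. The log2 ratio of Atp1b1 changed sign to -0.0014 with edgeR's TMM factors and to -0.0065 with DESeq2's size factors, both of which moved the median of all genes detected in both libraries by -0.10 (the cause was not tested). The Atp1b2 share of the beta subunits became 33.02% with principal transcripts alone, which leaves out Atp1b2-204. By expected counts, which are not per length, the FXYD shares became 85.9% for Fxyd6, 10.8% for Fxyd7 and 3.36% for Fxyd1. With each library alone, the Atp1b1 share was 39.1% to 53.4% and the Fxyd6 share 60.6% to 72.2%. No paired analysis was possible because the libraries form 1 group. With 1 library per pup, the pup and the library cannot be told apart, and at 13 pg of input the spread between repeat libraries of 1 pup was not measured.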
